A study of Homo sapiens with 10 samples.

Results

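The subject is a set of 156 piRNA identifiers of 26 to 28 nucleotides (nt) that were counted in small RNA. The cells were labelled BEAS-2B, a human line from bronchial epithelium that was immortalised. The identifiers were chosen from the 32826 piRNA identifiers in the tables by their listed length and by a sum of 100 or more counts over the 5 small RNA libraries. Stable lines carried either a vector for TAF1C, a subunit of the complex that recruits RNA polymerase I to ribosomal RNA genes, or the empty vector (eV). The labels name a pCMV6 promoter for the vector, and all lines were grown in LHC9 medium with serum under G418 selection. Small RNA had been sequenced in 3 libraries labelled TAF1C and 2 eV libraries, and long RNA likewise. The labels do not say whether replicates were separate cultures or whether a line was 1 clone, so each p below measures the spread between these samples, which may be technical.

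piRNAs are small RNAs, slightly longer than miRNAs, that are loaded onto PIWI proteins, a branch of the Argonaute family. In animal germ cells they guide PIWI proteins to transposon transcripts and loci, which are then cleaved or silenced. Their length is set by trimming of the 3' end on the PIWI protein, after which the end is methylated. The tables list each identifier with 1 length and its counts. They give neither the sequences nor their genome positions, so the origin of each identifier was not examined.

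The piRNA counts summed to between 2065555 and 2527214 in the libraries labelled TAF1C and to 2820570 and 3586390 in the eV libraries. The TAF1C transcript was not higher in the long RNA libraries labelled TAF1C, at 63.5, 58.5 and 66.5 CPM (counts per 1000000, TMM scale) against 63.9 and 77.1 CPM with eV (log2 fold change -0.17 ± 0.13, SE, edgeR adjusted p = 0.363), so the groups are called by their labels. Of 10 bronchial epithelial markers 9 were tested, of which 4 were raised and 2 lowered, against 15.6% and 22.3% of all 18402 genes tested. The raised ones were KRT7, KRT8, KRT18 and LAMB3, and the lowered ones EPCAM and ITGB4. KRT5, KRT17, KRT19 and CDH1 were not called or not tested, with at most 2.86 CPM in the libraries labelled TAF1C. The 10 summed to 1370 to 1484 CPM in the libraries labelled TAF1C and to 390 and 379 CPM with eV, most of it KRT7 and KRT8. KRT7, a keratin, was the most abundant, at 959 to 1054 CPM against 221 and 245 CPM in the eV libraries, while EPCAM, an epithelial adhesion protein named here after its values were seen, had only 0.0566 to 0.429 CPM against 14.6 and 1.09 CPM. Among 11 germ cell markers, 8 stayed under 1 CPM in every long RNA library, and SYCP3, a protein of meiotic chromosomes, led with 5.06 to 7.15 CPM against 8.29 and 5.29 CPM. The germ cell list summed to 7.44 to 9.29 CPM in the libraries labelled TAF1C and to 15.04 and 5.78 CPM with eV. All 12 photoreceptor markers were lowered, with a sum of 7.85 to 10.1 CPM in the libraries labelled TAF1C, against 2092 and 1891 CPM in the eV libraries. The calls of RCVRN, RP1, PDE6H, GNAT2, ARR3 and PDE6G were each lost under some other setting of the fit. Those of CRX, OTX2, NRL, AIPL1, GNGT1 and IMPG2 were kept under every other setting that tested them. For some markers the eV libraries differed widely, as for RCVRN (253 and 1.06 CPM) and RP1 (116 and 6.98 CPM). Others, such as OTX2 (300 and 422 CPM), were high in both, and these examples were named after their values were seen. IMPG2, a retinal matrix protein, led this list at 0.525 to 0.981 CPM against 862 and 674 CPM. This marker difference lies along the same split as every piRNA comparison below, and its part in them was not tested. The labels name BEAS-2B for both groups, and whether the profile of each group is that of this line was not tested.

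The 26 to 28 nt members covered a wide range of levels. Of 12363 identifiers of these lengths, 1571 had a count in any library and 156 reached the sum of 100, of which 40 were of 26 nt, 48 of 27 nt and 68 of 28 nt. No member was at 0 in any library, and the lowest count was 6. The median member had 735.5 counts over all libraries, 13 members had 10000 or more and 93 had under 1000. The rule was met narrowly by piR-hsa-30666, piR-hsa-10631 and piR-hsa-32180, with sums of 102, 101 and 100. Just outside it were piR-hsa-19170, piR-hsa-21238 and piR-hsa-23662, with 99, 91 and 89.

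A few members held most of the counts. piR-hsa-23209, of 27 nt, had 24.995% of all member counts, the 4 most abundant had 59.2% and the 8 most abundant 74.5%. The share of these 8 was 76.5%, 74.4% and 74.2% in the libraries labelled TAF1C and 73.2% and 73.7% in the eV libraries. Since the members were chosen by their counts, these levels describe the set and are not a test of it. Other identifiers of the same tables were more abundant still. piR-hsa-11361, of 30 nt, and piR-hsa-11360, of 32 nt, together held 57.5% to 61.5% of the piRNA counts in the libraries labelled TAF1C, against 67.4% and 68.2% with eV.

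Summed over the set, the members took a larger part of the piRNA counts in the libraries labelled TAF1C. They held 10.5%, 9.46% and 9.09% of the counts there, and 7.04% and 6.75% in the eV libraries. The groups did not overlap, with means of 9.69% ± 0.739 (SD, n = 3) and 6.89% ± 0.204 (SD, n = 2), and the exact two-sided permutation test gave p = 0.2, the smallest that 3 against 2 libraries allow (adjusted p = 0.3 over 6 such library values). Without the 2 identifiers that dominate the tables, the member share was 24.8%, 24.1% and 23.6% against 21.6% and 21.2%.

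The same held against the miRNA reads of each library. There were 13102, 12417 and 12012 member counts per 1000000 estimated miRNA reads in the libraries labelled TAF1C, and 9599 and 9508 with eV. The ratio of the means was 1.31, and the exact permutation p was again 0.2 (adjusted p = 0.3). All piRNA identifiers together went the other way, at 124569 to 132114 counts per 1000000 estimated miRNA reads in the libraries labelled TAF1C against 136430 and 140911 with eV, a ratio of 0.932. Identifiers of 29 and 30 nt had a ratio of 0.959 and overlapped between the groups. Those of 31 nt or longer had one of 0.821 without overlap. The sum of all identifiers includes both piR-hsa-11361 and piR-hsa-11360. piR-hsa-11360 held 18.4%, 19.2% and 19.9% of all piRNA counts with TAF1C, against 25.9% and 26.4% with eV. Its whole class of 31 nt or longer held 38.4%, 37.8% and 38.4%, against 43.2% and 43.5%. Ratios without these identifiers were not computed, so how far the contrast with the members rests on them was not tested. Identifiers of 25 nt or shorter had a ratio of 1.51, above that of the members, at 3802, 3459 and 3243 counts per 1000000 estimated miRNA reads in the libraries labelled TAF1C against 2360 and 2272 with eV. A larger summed count was therefore not particular to 26 to 28 nt. Within each library, member counts were also set against counts on identifiers of 31 nt or longer, piR-hsa-11360 among them. Per 1000 of these, member counts were 274, 250 and 237 with TAF1C, against 163 and 155 with eV. This value was added after the data were seen, and its exact permutation p was 0.2 (adjusted p = 0.3).

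**Figure D1:**
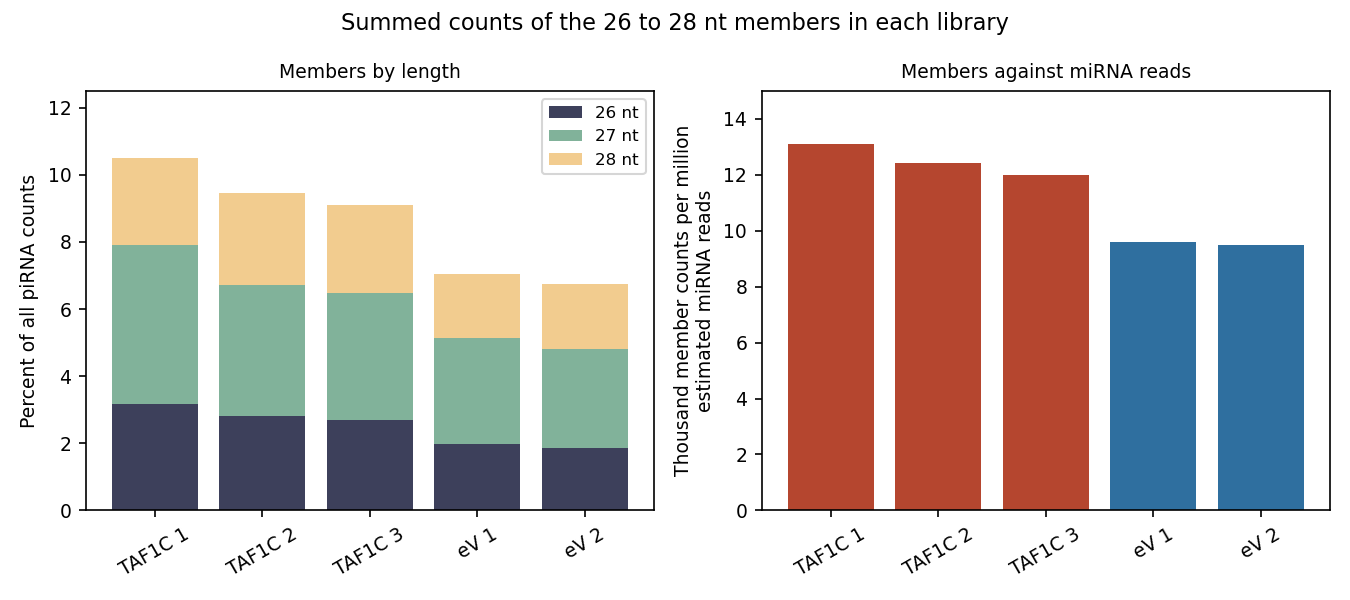
Left, percent of all piRNA counts on the members in each small RNA library, stacked by listed length. Right, member counts relative to estimated miRNA reads (counts per 1000000), on an axis in units of 1000. The 3 libraries labelled TAF1C reach 9.09% to 10.5%, above the 6.75% and 7.04% of the eV libraries, and stand higher on the miRNA scale too.

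Few members accounted for this difference in the sum. On the miRNA scale piR-hsa-23209 made up 40.4% of the summed difference and piR-hsa-26039, of 28 nt, 17.1%, while piR-hsa-20757 ran against it at -5.99%. On that scale 105 members had a higher mean in the libraries labelled TAF1C and 51 a lower one. The median log2 fold change on it was 0.22 over the members and 0.26 over all identifiers tested. A lean toward the libraries labelled TAF1C was therefore not particular to the members. Within the members, 26 nt identifiers held 30.2%, 29.6% and 29.5% of the counts with TAF1C and 28.2% and 27.4% with eV (exact permutation p = 0.2, adjusted p = 0.3), and this difference of 1.94 percentage points was 4.72 without piR-hsa-23209. For 27 nt the shares were 45.1%, 41.5% and 41.9% against 44.7% and 43.7% (exact permutation p = 0.6, adjusted p = 0.72). For 28 nt they were 24.7%, 28.9% and 28.7% against 27.1% and 28.9% (exact permutation p = 1). Both of the longer classes overlapped between the groups. The 28 nt difference of -0.549 percentage points turned to 0.791 without TAF1C replicate 1, to 0.338 without eV replicate 2 and to 1.29 without piR-hsa-23209. The 27 nt difference of -1.39 was -2.51 without TAF1C replicate 1, -0.744 without TAF1C replicate 2, -0.916 without TAF1C replicate 3, -0.914 without eV replicate 1 and -6.01 without piR-hsa-23209.

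The 8 most abundant members did not move as 1 block. piR-hsa-23209 was at 27047, 22785 and 21041 CPM on the TMM scale in the libraries labelled TAF1C and at 18527 and 16594 CPM with eV. Every TAF1C value lay above both eV values, and it rose by 0.43 ± 0.10 on the log2 scale (SE, adjusted p = 0.00226 in edgeR). piR-hsa-23210, of 26 nt, was at 4929, 4924 and 4360 CPM with TAF1C and at 3789 and 3943 CPM with eV, a log2 rise of 0.29 ± 0.09 (SE, edgeR adjusted p = 0.0156). piR-hsa-32159, of 26 nt, had 9317, 8392 and 7712 CPM against 6772 and 6275 CPM and rose by 0.38 ± 0.09. piR-hsa-32182, also of 26 nt, had 5224, 4344 and 3893 CPM against 3539 and 3190 CPM and rose by 0.42 ± 0.11. Their groups did not overlap, yet edgeR no longer called piR-hsa-32159 and piR-hsa-32182 without eV replicate 2 (adjusted p = 0.0770 and 0.0706), nor piR-hsa-23210 without eV replicate 1 (0.201), eV replicate 2 (0.0864) or TAF1C replicate 2 (0.135). DESeq2 did not call piR-hsa-23210 either (0.0552), nor did edgeR without a filter on low counts (0.189).

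The other abundant members took different courses. piR-hsa-20757, of 27 nt, was at 6975, 6352 and 6432 CPM in the libraries labelled TAF1C and at 8437 and 9764 CPM with eV. It fell by 0.47 on the log2 scale (SE 0.09, edgeR adjusted p = 0.000153), but this fall was not called with library totals, with piR-hsa-11361 counted (0.214) or left out (0.110). piR-hsa-29714, of 27 nt, had 1708, 1325 and 1304 CPM against 2106 and 1753 CPM, with groups that nearly met, and fell by 0.42 (edgeR adjusted p = 0.0137). It was not called without TAF1C replicate 3 (adjusted p = 0.0908) or eV replicate 1 (0.146), nor with library totals (0.653) or miRNA reads (0.217). piR-hsa-26039 had 13324, 15251 and 14420 CPM against 11853 and 13088 CPM, without overlap, and did not pass the test (log2 fold change 0.20 ± 0.09, SE, edgeR adjusted p = 0.0882). It was called without TAF1C replicate 1 (adjusted p = 0.0118), with library totals (0.000181), with miRNA reads (0.000472) and with a replicate block (0.0494). piR-hsa-28467, of 26 nt, overlapped between the groups, at 2944, 2765 and 2972 CPM against 2751 and 3044 CPM, with a log2 fold change of -0.00192 (edgeR adjusted p = 0.989), and its sign changed with library totals (0.32) and miRNA reads (0.21). It was called raised with library totals, with piR-hsa-11361 counted (adjusted p = 0.0156) or left out (0.0113).

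Across the set, 30 members rose and 26 fell in the edgeR quasi-likelihood test on the TMM scale (adjusted p under 0.05 over all 574 identifiers tested), while 100 did not pass. All 156 members were tested, since each cleared the filter on low counts. The raised members were 19.2% of the set, against 15.2% of all identifiers tested, and the lowered ones were 16.7%, against 14.1%. Called either way were 35.9% of the members, against 29.3% of all identifiers tested. In 33.3% of the members (52) every TAF1C value lay above every eV value and in 26.9% (42) below, against 29.3% and 22.8% of all identifiers tested. Of the 321 identifiers with a sum of 100 or more that are not members, 16.8% rose and 14.3% fell. The members' median log2 fold change was 0.01, against 0.05 over all identifiers tested, and the members' quartiles were -0.29 and 0.40. The 30 raised members had log2 fold changes from 0.29 to 2.05 and the 26 lowered from -1.98 to -0.34, and in all of them the groups did not overlap.

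**Figure D2:**
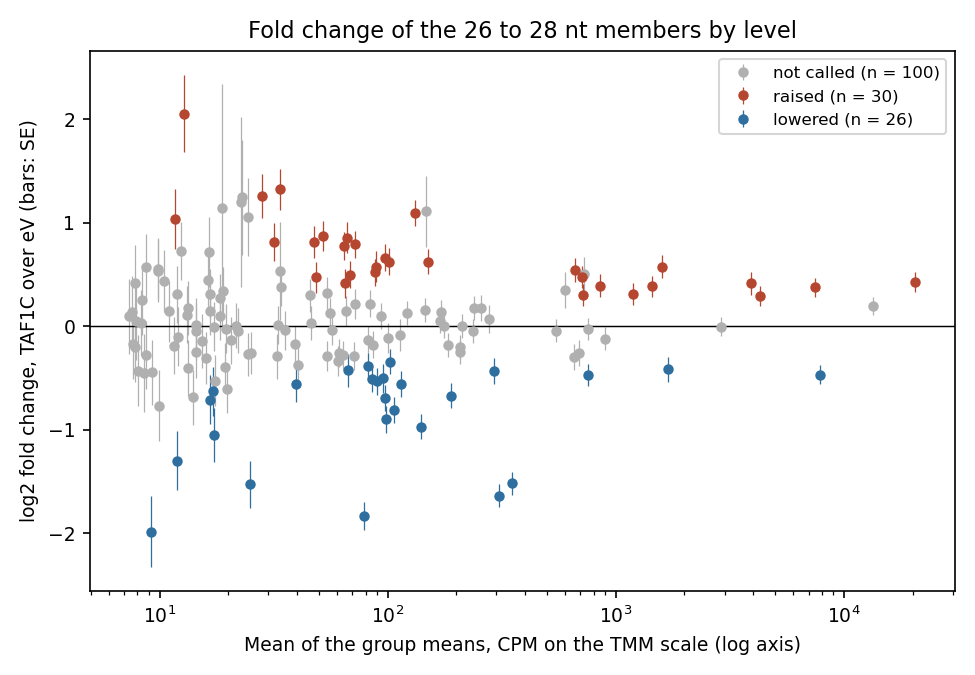
Log2 fold change (TAF1C over eV, with SE bars) of each member against its mean level in CPM on a log axis, coloured by the edgeR call. The 30 raised and 26 lowered members lie on both sides of 0 at most levels, and error bars widen toward low levels.

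Calls were found at every level, and identifiers with more counts were called more often whether or not they were members. Of the 13 members with 10000 or more counts, 8 rose and 2 fell, with no absolute log2 fold change above 0.58. Of the 62 identifiers at that level that are not members, 33.9% rose and 29% fell. Of 50 members with 1000 or more but under 10000 counts, 9 rose and 15 fell, against 14% and 19% of 100 others. Of 93 with fewer, 13 rose and 9 fell, against 11.9% and 5.66% of 159 others. The median SE was 0.10, 0.12 and 0.24 in these 3 bins, so small changes could pass the test only in the deeper ones. By length, 7 of the 40 members of 26 nt rose and 4 fell, 12 of the 48 of 27 nt rose and 10 fell, and 11 of the 68 of 28 nt rose and 12 fell. These are 17.5%, 25% and 16.2% raised and 10.0%, 20.8% and 17.6% lowered, against 15.2% and 14.1% of all identifiers tested.

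The split between rises and falls depended on the scale. Over all tested identifiers the median log2 fold change was 0.05 with TMM, 0.36 with library totals and 0.26 when libraries were scaled by their estimated miRNA reads. Rises made up 53.6% of the members called with TMM (30 and 26), 83.6% with library totals (61 and 12) and 76.6% with miRNA reads (49 and 15). The background moved alike, to 36.2% raised and 6.97% lowered of all identifiers tested with library totals, and to 28% and 8.89% with miRNA reads. Library totals without piR-hsa-11361 gave 61 and 12 members, against a background of 35.5% and 7.14%. DESeq2 gave 27 and 20 members, against 11.7% and 12.2%. No member called with TMM changed its sign under these scales, library totals without piR-hsa-11361 or the size factors of DESeq2. Under all 5 of them, 23 members were raised and 12 lowered, 14.7% and 7.69% of the set, against 10.3% and 6.79% of all identifiers tested. Of the 100 members not called, 45 changed sign between scales.

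Counts under the other settings are given with the share of all identifiers tested. Without TAF1C replicate 1, 36 members were raised and 34 lowered, against a background of 18.0% and 16.6%. Without TAF1C replicate 2 there were 26 and 24 (12.1% and 13.6% of all tested), and without TAF1C replicate 3 there were 26 and 21 (12.6% and 12.1%). Without eV replicate 1, 24 rose and 19 fell (9.61% and 10.6%), and without eV replicate 2, 23 and 22 did (10.3% and 10.5%). A fit without robust gave 34 and 25 (16.0% and 13.6%), and one with the replicate number as a block 28 and 19 (12% and 9.58%). A fit on all 3804 identifiers with a count gave 27 and 22 (1.79% and 2.0%). Only 477 of those 3804 reached the sum of 100 that every member has, so these last shares are not a like background.

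**Figure D3:**
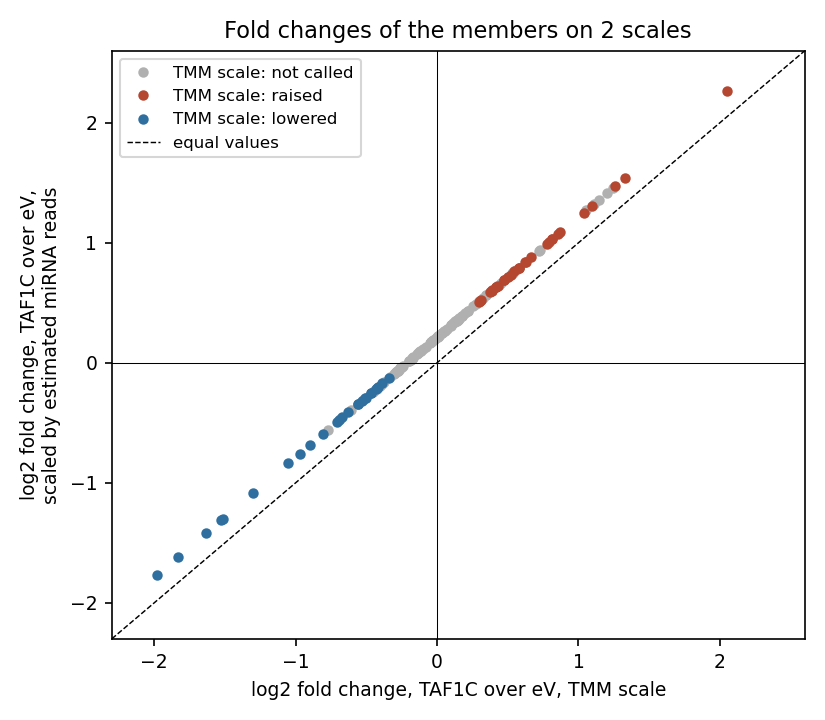
Log2 fold change of each member with libraries scaled by estimated miRNA reads (vertical) against that on the TMM scale (horizontal), with the line of equal values. All points lie above the line by about the same amount, while the members raised or lowered on the TMM scale keep their side of 0.

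Of the members past the test whose higher group averaged 100 CPM or more, the largest rise was that of piR-hsa-25046, of 27 nt. It was at 202, 161 and 174 CPM in the libraries labelled TAF1C and at 87.5 and 80.5 CPM in the eV libraries, 2.14-fold higher. The log2 fold change was 1.09 ± 0.13 (SE, edgeR adjusted p = 1.28e-07), and it passed under all 12 alternatives. The next in size, piR-hsa-32580 of 28 nt, had 106, 119 and 134 CPM against 67.2 and 82.8 CPM and was 1.59-fold higher. piR-hsa-14870, of 28 nt, had 203, 173 and 171 CPM against 126 and 111 CPM and was 1.54-fold higher. In each of these members every TAF1C value exceeded every eV value, which their selection required, and did so by less than 3-fold.

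piR-hsa-952, of 28 nt, joined a high level to one of the larger rises. It had 1662, 2170 and 1884 CPM with TAF1C against 1257 and 1296 CPM with eV, 1.49-fold higher (log2 0.58 ± 0.11, SE, edgeR adjusted p = 0.000132). piR-hsa-1245, of 26 nt, had 699, 895 and 777 CPM against 536 and 545 CPM and was 1.46-fold higher. Both passed under all 12 alternatives and were lowest, within their group, in TAF1C replicate 1. The last 3 of these rises were each under 150 CPM. piR-hsa-27007 had 133, 107 and 128 CPM against 76.3 and 82.5 CPM, piR-hsa-15603 had 88.5, 113 and 118 CPM against 61.6 and 80.2 CPM, and piR-hsa-32375 had 104, 110 and 97.2 CPM against 65.6 and 78.9 CPM. Without eV replicate 1, edgeR did not call piR-hsa-15603 (adjusted p = 0.0885) or piR-hsa-32375 (0.0987), and piR-hsa-15603 was also lost without TAF1C replicate 2 (0.0605). With a replicate block piR-hsa-27007 missed the threshold (0.0530).

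The 3 largest of the falls selected in the same way were all of 28 nt. piR-hsa-1556, of 28 nt, was at 33.7, 38.1 and 32.1 CPM in the libraries labelled TAF1C and at 129 and 118 CPM in the eV libraries, 3.55-fold lower (log2 fold change -1.83 ± 0.13, SE, edgeR adjusted p = 2.41e-11). piR-hsa-456, of 28 nt, had 144, 150 and 155 CPM against 483 and 448 CPM and was 3.11-fold lower (log2 -1.64 ± 0.11, SE, edgeR adjusted p = 1.13e-11). piR-hsa-23566, of 28 nt, had 182, 182 and 181 CPM against 500 and 540 CPM and was 2.86-fold lower. In all 3 of them the replicates of a group lay close together, and the gap between groups was wider than the range within either.

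The other large falls stayed within 2-fold. piR-hsa-27489, of 27 nt, had 106, 84.9 and 92.3 CPM with TAF1C against 198 and 173 CPM with eV and was 1.96-fold lower. piR-hsa-23655, of 28 nt, had 78.3, 65.8 and 61.1 CPM against 138 and 118 CPM and was 1.86-fold lower. piR-hsa-27725, of 28 nt, had 88.9, 74.6 and 67.8 CPM against 137 and 134 CPM, 1.75-fold lower. piR-hsa-24016 and piR-hsa-32299 were 1.62-fold and 1.59-fold lower. All 8 of these falls passed under all 12 alternatives, with library totals and miRNA reads among them.

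**Figure D4:**
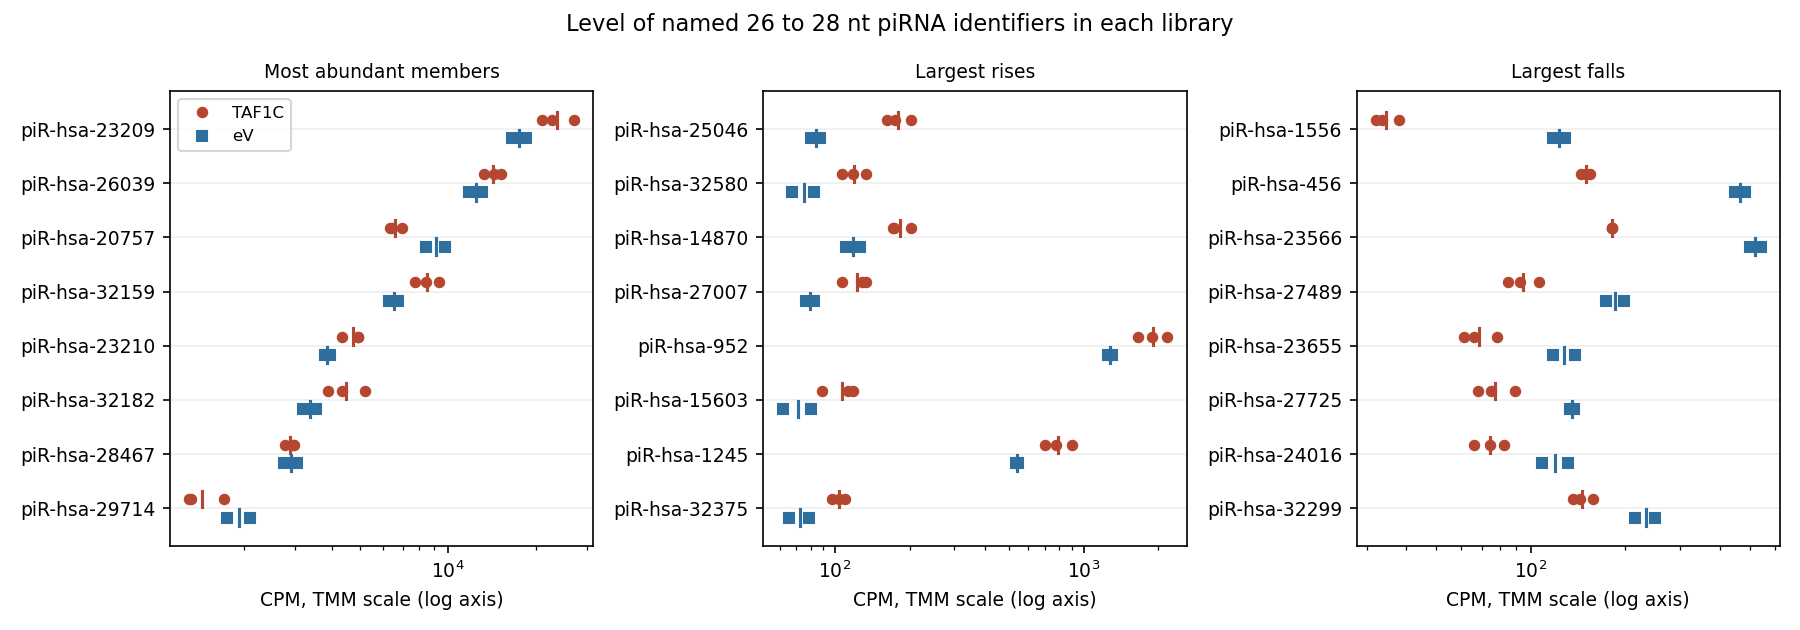
Level in CPM (log axis) of the most abundant members, the 8 largest rises and the 8 largest falls, 1 point per library and a tick at each group mean. Groups are apart in all rises and falls shown, since these were selected without overlap. They overlap for piR-hsa-28467 among the abundant members.

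The small RNA libraries of a group resembled each other more than those of the other group. Over the 63 members with a sum of 1000 or more, the SD of the log2 ratio between 2 libraries was 0.244, 0.254 and 0.166 for the pairs labelled TAF1C and 0.195 for the eV pair. For the 6 pairs across groups it was 0.532 to 0.587. TAF1C replicate 1 stood apart for a small set. In 4 members it was more than 2-fold above every other library, against 0 members for each of the other 4 libraries, and all 4 were of 28 nt. These 4 members were picked out after their values were seen.

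piR-hsa-26399 had 56.9 CPM in TAF1C replicate 1, 5.95 and 14.3 CPM in the other replicates labelled TAF1C, and 10.7 and 12.9 CPM with eV. piR-hsa-28646 had 59.7, 15.9 and 19.6 CPM against 12.3 and 15.5 CPM, and piR-hsa-27282 had 53.4, 21.0 and 22.3 CPM against 14.3 and 13.3 CPM. These 3 had log2 fold changes of 1.15, 1.20 and 1.25 and did not pass the test (edgeR adjusted p = 0.597, 0.396 and 0.194), and over the alternatives the log2 fold change of piR-hsa-26399 ran from -0.26 to 1.55. The remaining member of the 4, piR-hsa-26747, had 31.6, 15.1 and 15.2 CPM against 5.17 and 4.85 CPM and rose 4.15-fold (edgeR adjusted p = 0.000334), and it passed under all 12 alternatives. piR-hsa-28382, of 26 nt, was likewise highest in that replicate, at 276, 147 and 179 CPM against 101 and 85.4 CPM. It did not pass on the TMM scale (log2 fold change 1.11 ± 0.34, SE, edgeR adjusted p = 0.0919). With library totals and with miRNA reads edgeR did call it (adjusted p = 0.0156 and 0.0333). Over the edgeR scales and DESeq2, the lowest adjusted p of piR-hsa-27282 was 0.0141.

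Some members had consecutive identifier numbers, which the rule did not use. There were 17 such pairs, in 12 runs that held 29 members. Whether neighbours in number share sequence or reads is not given in the tables and was not tested, and no 2 members had the same counts in all 5 libraries. The log2 fold changes of the 17 pairs differed by a median of 0.38, against 0.53 over all 12090 pairs of members. Both neighbours were lowered in 3 pairs and both raised in 1, 5 pairs had 1 call, 8 had none and 0 had opposite calls. Shares of such pairs among all pairs of members were not counted, so these counts only describe the 17 pairs.

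Within runs, neighbours moved by differing amounts. piR-hsa-30386 and piR-hsa-30387 both fell, the first with 7.73, 11.1 and 15.2 CPM in the libraries labelled TAF1C against 23.1 and 23.3 CPM with eV. The second had 4.22, 2.38 and 4.46 CPM against 15.9 and 13.6 CPM, 3.95-fold lower (edgeR adjusted p = 4.72e-05). In the run from piR-hsa-27489 to piR-hsa-27492, 3 of the 4 members fell. piR-hsa-27490 overlapped between the groups, at 135, 105 and 87.4 CPM against 124 and 109 CPM, although its neighbour piR-hsa-27491 was 2.46-fold lower, at 5.97, 5.95 and 8.92 CPM against 17.5 and 16.5 CPM. piR-hsa-27492 had 12.6, 12.3 and 12.9 CPM against 19.9 and 21.3 CPM and was 1.63-fold lower, but was not called with library totals (adjusted p = 0.155). The members of these runs were picked by their numbers, after their values were seen. The 5 members from piR-hsa-28185 to piR-hsa-28189, the longest run, held no call, with log2 fold changes from -0.61 to 0.18.

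**Figure D5:**
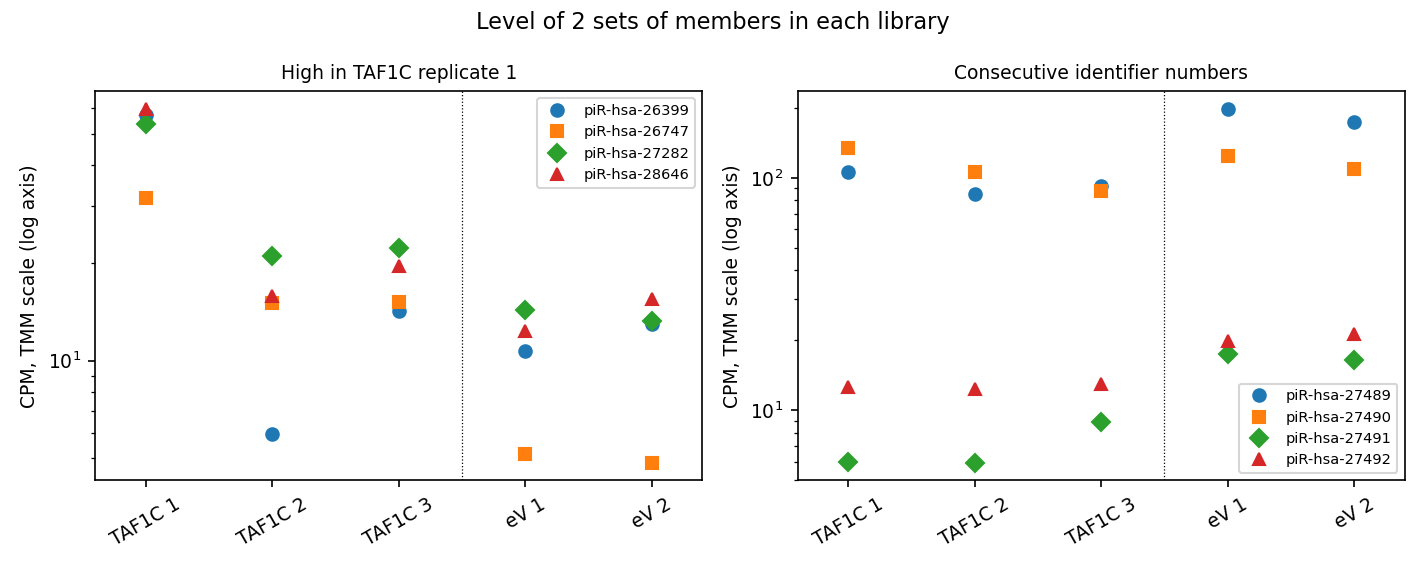
Level in CPM (log axis) in each library of the 4 members that were high in TAF1C replicate 1 (left) and of the 4 members numbered piR-hsa-27489 to piR-hsa-27492 (right). On the left the first library stands above the rest, and on the right piR-hsa-27490 alone overlaps between the groups.

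The other length classes were read with the same sum of 100 or more. Of 176 identifiers of 29 and 30 nt 16.5% rose and 11.9% fell, and of 134 of 31 nt or longer 16.4% rose and 18.7% fell, beside 19.2% and 16.7% of the members. Of the 11 identifiers of 25 nt or shorter 3 rose (27.3%) and 0 fell, and in 8 of them every TAF1C value lay above every eV value. The median log2 fold change was 0.20 for 25 nt or shorter, 0.01 for the members, 0.07 for 29 and 30 nt and 0.03 for 31 nt or longer. The difference between length classes in these shares was not tested, and the classes share their libraries.

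The genes that make and use piRNAs were read from the long RNA libraries. Among the 29 genes of this list, 16 reached the level for a test. On the TMM scale 3 of the 16 rose and 3 fell, 18.75% each, against 15.6% raised and 22.3% lowered of 18402 genes tested. The median log2 fold change of the 16 was -0.88, against -0.10 over all genes. Transcripts of the PIWI proteins themselves were at low levels. PIWIL1 had 0.622, 0.321 and 0.491 CPM in the libraries labelled TAF1C and 2.03 and 0.0352 CPM in the eV libraries, and PIWIL3 had 0.311, 0.350 and 0.429 CPM against 1.18 and 0 CPM, and neither was tested. PIWIL2 had 0.594, 0.817 and 0.981 CPM against 2.14 and 1.45 CPM, and PIWIL4 had 1.39, 1.98 and 1.81 CPM against 2.76 and 0.846 CPM. Neither passed the test (edgeR adjusted p = 0.0680 and 0.938). In bulk RNA, fewer cells that express a gene and less RNA per cell cannot be told apart.

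Calls among the factors that act with PIWI proteins went both ways, at shares near those of all genes tested. SPOCD1, which in mouse germ cells links piRNAs to DNA methylation of transposons, was at 36.5, 38.3 and 37.2 CPM in the libraries labelled TAF1C and at 3.65 and 2.33 CPM with eV. It rose by 3.64 ± 0.24 on the log2 scale (SE, edgeR adjusted p = 0.000513). PRMT5, an arginine methyltransferase that modifies PIWI proteins in mouse, had 65.9, 63.8 and 70.2 CPM against 27.5 and 45.0 CPM, and its partner WDR77 had 30.9, 33.0 and 28.9 CPM against 13.2 and 21.3 CPM. TDRD7, a tudor protein of germ granules, had 4.13, 3.59 and 3.10 CPM against 15.5 and 7.30 CPM and fell (edgeR adjusted p = 0.0195), a call that was lost with a replicate block (0.0671). TEX15, needed for transposon silencing in mouse testis, had 24.97, 29.3 and 26.2 CPM against 39.7 and 107 CPM, and DNMT3L, a cofactor of DNA methylation in germ cells, had 0.283, 0.583 and 0.675 CPM against 1.29 and 3.10 CPM. Without any one of the TAF1C replicates, SPOCD1 was the only call left in the list, with 1 raised and 0 lowered. All genes tested were then raised and lowered in 5.69% and 11.0% of cases without replicate 1, 6.04% and 10.1% without replicate 2, and 5.72% and 10.7% without replicate 3. Without eV replicate 1 the list had 5 raised and 4 lowered genes (29% and 29.5% of all genes), and without eV replicate 2 it had 3 and 6 (35.7% and 34.1%). DESeq2 raised 4 and lowered 5 (20.0% and 23.9% of all genes), and a replicate block 3 and 2 (7.65% and 13.6%). The number of list genes tested was 16 in these 2 fits and without TAF1C replicate 1 or 2. It was 15 without TAF1C replicate 3, 13 without eV replicate 1 and 14 without eV replicate 2.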

How the data were processed

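The members and gene lists were chosen with earlier results of these data known. Per the labels' protocols, the mirVana kit gave the RNA and NEBNext kits the libraries, with ribosomal RNA depleted for long RNA. Build hg19 is listed in the submitters' processing notes, as are DESeq2, HISAT2, Cufflinks 2.2.1, Bowtie2 2.2.4 and Trimmomatic 0.36, with no roles given. The deposited piRNA and long RNA tables hold raw counts, and how reads matching several piRNAs were counted is not stated. The deposited miRNA signal falls on even steps, 1 step size per library. Every value of at most 3000 steps was whole to within 0.05, so each library's miRNA reads were estimated as its signal divided by its step, for 338 miRNAs above 0 throughout (15634642 to 25451454 reads).

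Groups followed the labels, without covariates. All piRNA identifiers kept by filterByExpr (574), and long RNA genes that reached 1 CPM in 2 or more libraries, were tested with the robust edgeR 4.0.16 quasi-likelihood fit (R 4.3.3, TMM scaling), tested on simulated data first. p were two-sided and adjusted by Benjamini-Hochberg over each whole table. CPM levels use TMM factors. Single library values had exact permutation tests by full enumeration of the splits of 3 against 2 libraries. The named members are the 8 most abundant and the 8 largest rises and 8 largest falls past the test, without overlap and with a mean of at least 100 CPM in the higher group. For markers the most abundant was named, and for the piRNA pathway the PIWIL genes and those past the test. The 3 identifiers on each side of the sum of 100 are also named. DDX4 and MAEL are in both the pathway and the germ cell list. The 12 alternatives for the members were other scalings, DESeq2 1.42.0, a fit without robust, no filter, each library left out and a replicate block, and 2 other sums (50 and 200) for membership were tried.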

Additional observations from a re-analysis of the deposited data

How the results depend on the processing

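The count of raised members moved from 30 to 61 with library totals, 49 with miRNA reads and 61 with library totals without the most abundant identifier, and the count of lowered members from 26 to 12, 15 and 12. Leaving out 1 library gave 23 to 36 raised and 19 to 34 lowered, and the fits with 1 eV library take the spread from the other group. The other alternatives stayed within 1.5 times (27 to 34 raised and 19 to 27 lowered). Some of the 30 raised and of the 26 lowered members passed under all 12 alternatives. The share of all identifiers tested that did so was not counted. piR-hsa-28467, near 0 with TMM, had log2 fold changes of 0.21, 0.32 and 0.30 with miRNA reads, library totals and totals without the most abundant identifier, and -0.0859 to 0.0636 with 1 library left out. The share of 28 nt changed sign to 1.29 percentage points without the most abundant member and ran from -1.44 to 0.79 with 1 library left out. For the piRNA pathway, DESeq2 called 5 genes lowered, and leaving out 1 library gave 1 to 5 raised and 0 to 6 lowered. The cause of these changes was not tested.

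With the replicate number as a replicate block, in which TAF1C replicate 3 has no partner, 28 members were raised and 19 lowered, and 3 and 2 pathway genes. The deviations of same-numbered small RNA libraries from their group means correlated at 0.160 and 0.0147 over identifiers, and the labels give no pairing. Depth limits the members with few counts, and 2 had under 10 counts in a library. The largest SE, 1.19, was that of piR-hsa-26399, a member that was high in TAF1C replicate 1 alone.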
